A study of Homo sapiens with 18 samples.

Results

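Nutlin, which activates p53, and PD0332991 (palbociclib), which inhibits CDK4 and CDK6, were compared directly in the osteosarcoma cell line SJSA-1. The comparison used 6 of the 18 RNA-seq libraries of the series, namely the 3 titled Nutlin and the 3 titled PD30, chosen by their sample titles. The Nutlin cells received 20 µM Nutlin for 6 h, and the PD30 cells received 10 µM PD0332991 for 30 h. The 3 DMSO libraries, from cells given the solvent, serve only as a reference level, and no test was made against them. Each group is thus a drug at its own exposure time, so that drug and time cannot be told apart. According to the treatment scheme of the study, Nutlin was present in the last 6 h of the 30 h schedule. The scheme writes a lower Nutlin concentration beside the 20 µM that the labels give. All groups share a single cell line, and cell cycle phase itself was not analysed here.

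MDM2 binds p53, blocks its activity and marks it for degradation, and Nutlin occupies the pocket on MDM2 that holds p53. Freed p53 switches on genes of arrest, death and repair, among them CDKN1A, whose product p21 inhibits cyclin-dependent kinases. CDK4 and CDK6, bound to D-type cyclins, phosphorylate the retinoblastoma protein RB1, which releases the E2F factors that drive the genes of S phase. When RB1 and its relatives stay unphosphorylated, E2F targets and, through the DREAM complex, the genes of G2 and M phase are held down. Both drugs can therefore reach the same set of cell cycle genes, Nutlin through p21 and PD0332991 through the kinases themselves. SJSA-1 cells carry extra copies of MDM2 and CDK4.

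Between 27137933 and 30515707 reads were counted on genes in the Nutlin libraries, 29035675 to 35963015 in PD30 and 28836321 to 33004047 in DMSO. The Nutlin libraries had a count for 19464 to 19626 genes, above the 18346 to 18535 of PD30 and the 18047 to 18242 of DMSO. MDM2 alone took 2.82%, 2.08% and 1.97% of the counts in the Nutlin libraries, against 0.115% to 0.155% in PD30. Of 16 osteoblast lineage markers, 8 lay under 1 CPM in Nutlin and 7 in PD30, and their summed level was 147.6 to 231 CPM in Nutlin and 137 to 147 CPM in PD30. RUNX2, the master regulator of the lineage, was present at 25.1, 24.9 and 23.1 CPM in Nutlin and 26.8, 27.7 and 33.4 CPM in PD30. IBSP, which encodes bone sialoprotein, was too low to test, with at most 4 reads in a Nutlin library and none in PD30. Levels are given in CPM, counts per library size after scaling by TMM. Nothing in the labels says that replicates came from separate cultures, so the p-values measure the spread between these libraries, and the study calls them biological triplicates.

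Genes higher in Nutlin and genes higher in PD30 were about equally numerous at the level of the test, but the larger differences lay mostly on the side of Nutlin. Of 15824 genes tested, 4677 were higher in Nutlin (29.6%) and 4634 were higher in PD30 (29.3%), with an adjusted p below 0.05 as the threshold. The adjusted p is that of the quasi-likelihood test of edgeR, without a replicate term, corrected by Benjamini-Hochberg over all genes tested. With a log2 fold change over 1 in addition, 2574 genes (16.3%) were higher in Nutlin and 1406 (8.89%) were higher in PD30, and these are named here as past both thresholds. All log2 fold changes are Nutlin against PD30, so that positive values mean higher in Nutlin. The split moved with the scaling. Past both thresholds, 64.7% of the genes were higher in Nutlin, against 50.7% after quantile normalization in limma (2000 and 1942 genes), and total-count scaling shifted the median of all genes from 0.009 to -0.104. In bulk RNA, fewer cells in a phase of the cycle and less RNA per cell cannot be told apart.

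Past both thresholds, the median log2 fold change was 1.90 for genes higher in Nutlin. Many were low in the other group, with a mean under 1 CPM in PD30 for 1352 of the 2574 and no more than 3 reads in any PD30 library for 213, of which 33 had none. Without these 213 genes, whose fitted fold depends on the model's prior, the median was 1.79, and 173 genes exceeded 4. The genes higher in PD30 had a median of -1.36, and 2 of them exceeded a size of 4. Their mean level in Nutlin was under 1 CPM in 264 of 1406. Among genes with at least 10 CPM on average, 858 were higher in Nutlin and 582 in PD30. That average runs over both groups, so genes near absence in the lower group remain among these. INPP5D, with a mean of 54.2 CPM in Nutlin and 0.511 CPM in PD30, is an example.

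The DMSO level did not sit on a single side of the treated groups. Over all genes tested, the DMSO mean lay below both treatments in 30.8%, between them in 37.4% and above both in 31.8%. Of the 2574 genes higher in Nutlin, DMSO lay below both treatments in 767 (29.8%), between them in 1215 (47.2%) and above both in 592 (23%). Of the 1406 genes higher in PD30, it lay below both in 176 (12.5%), between them in 907 (64.5%) and above both in 323 (23%). A further 2945 genes (18.6% of those tested) had a 95% interval of the log2 fold change wholly within 0.5 of 0, so that a difference of more than 1.41-fold between the treatments was outside their interval.

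**Figure D1:**
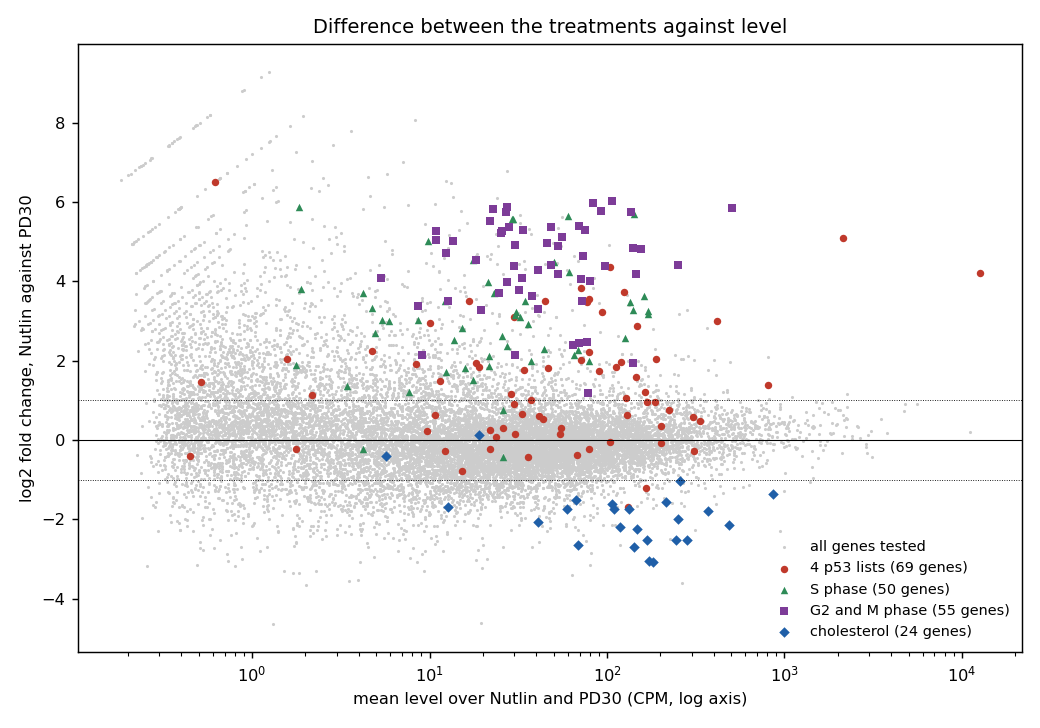
Log2 fold change of Nutlin against PD30 (vertical axis) against the mean level over both groups in CPM (horizontal log axis) for the 15824 genes tested, with dotted lines at 1 and -1. The 55 G2 and M phase genes (squares) all lie above 1, the cholesterol genes (diamonds) lie below -1 in 22 of 24 cases, and the 69 genes of the p53 lists (circles) range from -1.68 to 6.50, the highest being SFN with 1 read in all PD30 libraries together.

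The p53 targets were higher in Nutlin in most cases, while the median target in PD30 lay close to its DMSO level. Over the 4 lists of p53 targets, 69 of 72 genes could be tested. At the adjusted p, 50 were higher in Nutlin and 4 in PD30, against 29.6% and 29.3% of all genes tested. Past both thresholds these numbers were 37 and 2, or 53.6% and 2.90% of the genes tested, against 16.3% and 8.89% of all genes. The Nutlin libraries all lay above the PD30 libraries in 51 of the 69 genes, against 31.0% of all genes tested, and the reverse held in 8, against 33.6%. The median log2 fold change was 1.13, beside 0.009 over all genes. With DMSO as reference, the median member lay 0.98 above DMSO in Nutlin and 0.043 below it in PD30, on the log2 scale. Single members departed from that median on both sides. DMSO lay below both treatments in 30 of the 69, between them in 31 and above both in 8. The PD30 mean was below DMSO for PPM1D (20.8 against 39.6 CPM), SESN1 (9.55 against 19.35 CPM) and BTG2 (7.32 against 14.98 CPM). The same held for MDM2 (1295.1 against 2563.5 CPM), CDKN1A, FAS, FDXR, DDB2, TP53I3, XPC, BBC3 and BAX. The PD30 mean was above DMSO for GDF15 (94.4 against 40.1 CPM) and TNFRSF10B (448.5 against 341 CPM). RRM2B, CCNG1, LPIN1 and SAT1 also lay above DMSO in PD30.

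Among the feedback regulators, 5 of 8 genes were higher in Nutlin and 1 in PD30, against 29.6% and 29.3% of all genes tested. MDM2 (chromosome 12, 69201957 to 69239324 on GRCh37) had 29829.9, 22035 and 19599 CPM in the 3 Nutlin libraries and 1241, 1144 and 1500.3 CPM in PD30, with 2484, 2583 and 2623 CPM in DMSO. The Nutlin libraries lay far above both other groups, which did not overlap each other either (log2 fold change 4.22 ± 0.181 (SE), edgeR adjusted p = 2.15e-08). The gene overlaps that of carboxypeptidase M on the opposite strand, as 72 of the 124 named genes overlap some annotated gene there. Reads were counted in a reverse-stranded setting, but the methods do not say whether the library kit keeps the strand. PPM1D, a phosphatase that switches p53 signalling off again, had 81.9, 75.6 and 58.1 CPM in Nutlin and 20.3, 19.99 and 22.02 CPM in PD30 (log2 fold change 1.81 ± 0.134 (SE), edgeR adjusted p = 1.34e-06). CCNG1, which encodes cyclin G1, was higher by a smaller step (log2 fold change 0.95 ± 0.134 (SE), edgeR adjusted p = 0.000131).

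Targets in growth arrest were higher in Nutlin with few exceptions. Of 15 genes, 13 were higher in Nutlin at the adjusted p and none in PD30, against 29.6% and 29.3% of all genes tested. Past both thresholds 8 were higher in Nutlin, against 16.3% of all genes. CDKN1A (chromosome 6, 36644237 to 36655114) had 4086, 4382 and 3924 CPM in Nutlin, 128, 110.4 and 129.7 CPM in PD30 and 217, 189.6 and 141 CPM in DMSO. Its level in PD30 lay under the lowest DMSO library, and in Nutlin it was 34.3-fold that of PD30 (log2 fold change 5.10 ± 0.123 (SE), edgeR adjusted p = 5.15e-09). The locus holds the antisense transcript DINOL on the other strand. SESN1, a sestrin that restrains mTORC1, had 163, 127 and 112 CPM in Nutlin and 9.79, 8.02 and 10.8 CPM in PD30 (log2 fold change 3.83 ± 0.168 (SE), edgeR adjusted p = 2.62e-08). BTG2, an antiproliferative gene, had 93.96, 71.5 and 80.03 CPM and 6.44, 7.68 and 7.83 CPM (log2 fold change 3.50 ± 0.140 (SE), edgeR adjusted p = 1.45e-08). GDF15, a secreted stress cytokine, varied more within Nutlin, at 434, 987 and 798 CPM, against 72.4, 104 and 107 CPM in PD30 and 40.9, 49.7 and 29.8 CPM in DMSO. Each PD30 library of GDF15 lay above each DMSO library, and each Nutlin library above each PD30 library (log2 fold change 3.0 ± 0.273 (SE), edgeR adjusted p = 6.07e-06). SFN, which encodes 14-3-3 sigma, was nearly absent from PD30, with 0, 1 and 0 reads against 29, 35 and 39 reads in Nutlin, too few for a fold.

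Of the targets in cell death, 16 of 21 genes tested were higher in Nutlin and 12 passed both thresholds, against 29.6% and 16.3% of all genes. FAS, a death receptor, had 162, 132 and 129.8 CPM in Nutlin, 13.1, 12.4 and 12.8 CPM in PD30 and 23.9, 23.4 and 20.3 CPM in DMSO (log2 fold change 3.49 ± 0.119 (SE), edgeR adjusted p = 7.75e-09). The PD30 libraries of FAS lay below all 3 DMSO libraries. BBC3, which encodes the BH3-only protein PUMA, had 12.7, 16.97 and 23.8 CPM in Nutlin and 1.46, 2.13 and 3.43 CPM in PD30 (log2 fold change 2.94 ± 0.312 (SE), edgeR adjusted p = 1.80e-05). BAX, the pore-forming effector of apoptosis, had 221, 202 and 228 CPM and 68.6, 77.6 and 72.9 CPM (log2 fold change 1.60 ± 0.0975 (SE), edgeR adjusted p = 3.10e-07). TNFRSF10B, the TRAIL receptor DR5, differed by 2.62-fold at a higher count, 1175, 1166 and 1129 CPM against 449, 422 and 474 CPM (log2 fold change 1.39 ± 0.0935 (SE), edgeR adjusted p = 6.53e-07). TP53I3, also called PIG3, had 242, 248 and 202 CPM in Nutlin and 17.2, 21.2 and 14.3 CPM in PD30 (log2 fold change 3.74 ± 0.151 (SE), edgeR adjusted p = 1.50e-08). FAS overlaps ACTA2, and TP53I3 overlaps FAM228B, on the opposite strand. Only STEAP3, a metalloreductase, was higher in PD30 at the adjusted p (log2 fold change -0.38 ± 0.110 (SE), edgeR adjusted p = 0.0116). It is named as the only member past the adjusted p in that direction. A further 4 members passed in neither direction, and 5 of the 21 had a negative log2 fold change.

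The targets in repair and metabolism held both p53 targets that were higher in PD30 past both thresholds. Of 25 genes tested, 16 were higher in Nutlin and 2 in PD30 at the adjusted p, against 29.6% and 29.3% of all genes. FDXR, a mitochondrial ferredoxin reductase, had 162, 228 and 202 CPM in Nutlin, 8.96, 10.4 and 9.94 CPM in PD30 and 17.7, 15.8 and 11.3 CPM in DMSO (log2 fold change 4.36 ± 0.152 (SE), edgeR adjusted p = 7.75e-09). DDB2, which recognizes ultraviolet damage in DNA, had 145, 149.6 and 144 CPM in Nutlin and 13.6, 10.3 and 14.1 CPM in PD30, with 32.4, 33.6 and 33.4 CPM in DMSO (log2 fold change 3.55 ± 0.138 (SE), edgeR adjusted p = 1.28e-08). The order of DDB2 was thus Nutlin, DMSO, PD30, with no overlap between neighbours. XPC (log2 fold change 1.97 ± 0.10 (SE), edgeR adjusted p = 7.89e-08), a partner of DDB2 in damage recognition, and RRM2B (log2 fold change 2.03 ± 0.124 (SE), edgeR adjusted p = 3.17e-07), the p53-controlled subunit of ribonucleotide reductase, were also higher in Nutlin. In both genes that were higher in PD30, the Nutlin libraries overlapped those of DMSO. LPIN1, a phosphatidate phosphatase of lipid synthesis, had 60.8, 63.1 and 62.3 CPM in Nutlin, 187, 186 and 232 CPM in PD30 and 61.5, 65.5 and 63.7 CPM in DMSO (log2 fold change -1.68 ± 0.113 (SE), edgeR adjusted p = 6.68e-07). SAT1, which acetylates polyamines, had 136, 94.4 and 65.6 CPM in Nutlin and 229, 227 and 236 CPM in PD30 (log2 fold change -1.21 ± 0.199 (SE), edgeR adjusted p = 0.000396).

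**Figure D2:**
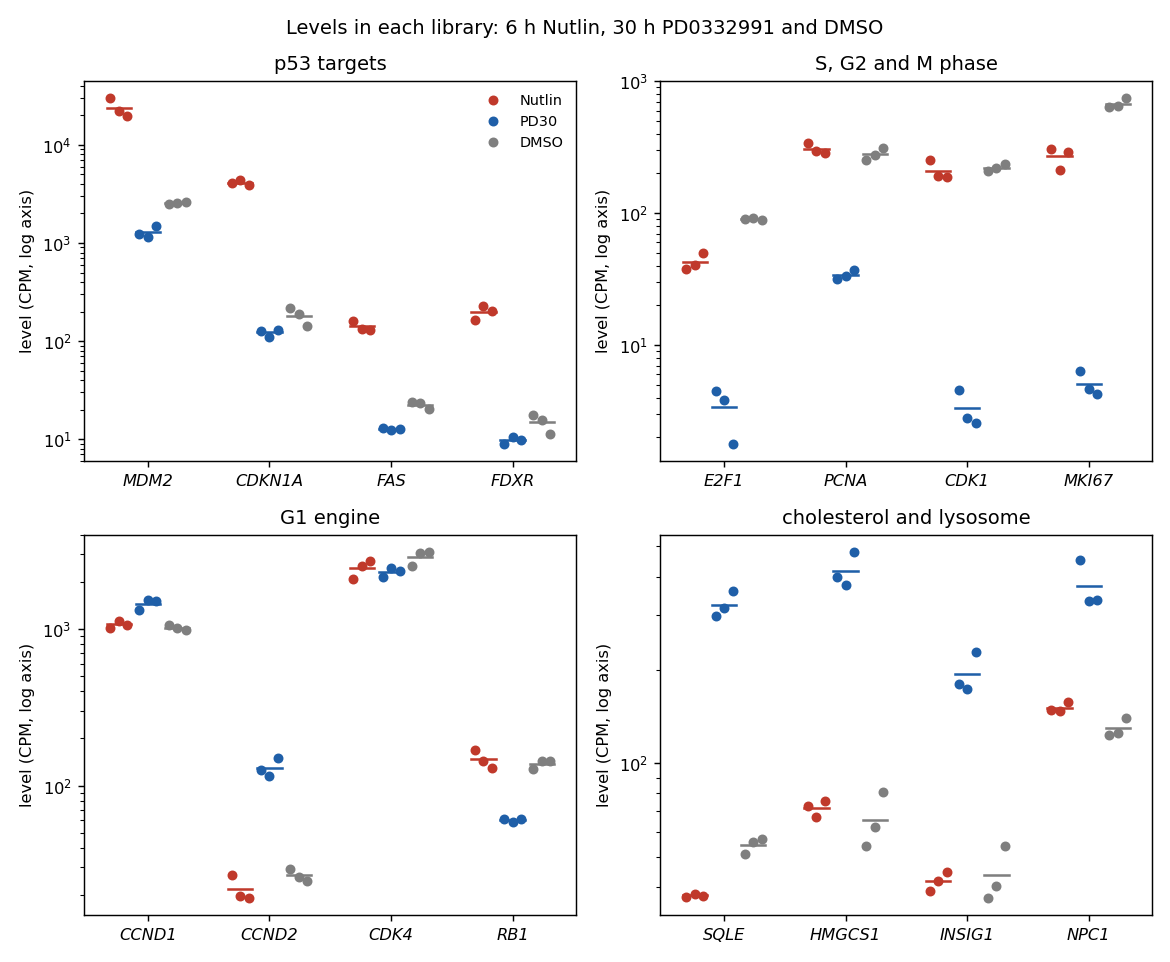
Levels in CPM (log axis) of 16 genes in each Nutlin, PD30 and DMSO library, with a line at the mean of the 3 libraries of a group. The p53 targets stand highest in Nutlin, the S, G2 and M phase genes lowest in PD30, and SQLE, HMGCS1, INSIG1 and NPC1 highest in PD30, while the CDK4 libraries of Nutlin and PD30 overlap.

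The kinases that PD0332991 inhibits differed little at the mRNA level, whereas several of their partners differed strongly. Of 24 genes of the G1 machinery, 7 were higher in Nutlin, 7 were higher in PD30 and 10 passed in neither direction, shares close to the 29.6% and 29.3% of all genes tested. The median log2 fold change was 0.030, between -0.084 and 0.18 over the alternative settings. CDK4 had 2080.3, 2538 and 2724 CPM in Nutlin and 2162, 2464 and 2346 CPM in PD30 (log2 fold change 0.10, 95% interval -0.16 to 0.37), and its sign turned under total-count scaling and quantile normalization. CDK6 was close to the threshold (log2 fold change -0.27 ± 0.108 (SE), edgeR adjusted p = 0.0485), and 7 of the 14 alternative settings lost the call. CCND1, which encodes cyclin D1, had 1019, 1128 and 1069 CPM in Nutlin and 1314, 1532 and 1505 CPM in PD30 (log2 fold change -0.41 ± 0.0994 (SE), edgeR adjusted p = 0.0045). The D cyclins were unequal. CCND2 had 26.8, 19.6 and 19.2 CPM in Nutlin, 125, 115 and 151 CPM in PD30 and 29.4, 26.2 and 24.5 CPM in DMSO, 5.87-fold higher in PD30 (log2 fold change -2.55 ± 0.155 (SE), edgeR adjusted p = 2.93e-07).

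Among the RB1 family and its partners, RB1 had 168, 144 and 130.1 CPM in Nutlin, 60.96, 58.7 and 61.5 CPM in PD30 and 127, 143 and 143 CPM in DMSO (log2 fold change 1.31 ± 0.108 (SE), edgeR adjusted p = 2.78e-06). The Nutlin and DMSO libraries of RB1 overlapped, and PD30 lay under both. RBL2, which encodes the DREAM pocket protein p130, did not pass (log2 fold change -0.052, 95% interval -0.30 to 0.19). E2F5, a repressor E2F that pairs with p130, was the member furthest towards PD30, at 0.520, 0.634 and 0.696 CPM in Nutlin and 6.803, 7.52 and 7.41 CPM in PD30, with 5.101, 4.67 and 4.29 CPM in DMSO (log2 fold change -3.52 ± 0.205 (SE), edgeR adjusted p = 2.12e-07). CDK2 (log2 fold change 2.18 ± 0.106 (SE), edgeR adjusted p = 5.74e-08), the kinase of S phase entry, and LIN9 (log2 fold change 2.92 ± 0.292 (SE), edgeR adjusted p = 1.15e-05), a core subunit of the MuvB complex, were higher in Nutlin, and both had their highest level in DMSO, at 109, 103 and 112 CPM and 16.7, 16.3 and 21.1 CPM. CDKN1B, which encodes the inhibitor p27, had 43.3, 46.5 and 42.2 CPM in Nutlin and 39.8, 42.1 and 45.4 CPM in PD30, both under the 75.2, 66.6 and 66.98 CPM of DMSO (log2 fold change 0.077, 95% interval -0.15 to 0.31).

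The genes of S, G2 and M phase had the largest median differences of the 19 lists. Over both lists, 103 of 105 genes were higher in Nutlin at the adjusted p and 102 passed both thresholds, against 29.6% and 16.3% of all genes tested, and the median difference was 3.71 on the log2 scale. DMSO lay above both treatments in 98 of the 105. Promoters of these genes are known to be bound by E2F factors and by the MuvB core of DREAM, which reads a short element called CHR. The bases before the start of transcription of 4 named genes are shown because they hold these elements (RefSeq, GRCh38.p14, 200 bases, 5′ to 3′ on the gene's strand). Capitals mark every match to an E2F word (TTTCCCGC, TTTGGCGC, TTCCCGCC or TTGGCGGG), to CHR (TTTGAA) or to CCAAT, on either strand. CDC6 (chr17:40287679-40287878, plus strand) and PCNA (chr20:5126623-5126822, minus strand) are S phase genes, and PLK1 (chr16:23678689-23678888, plus strand) and MKI67 (chr10:128126424-128126623, minus strand) are G2 and M phase genes.
CDC6: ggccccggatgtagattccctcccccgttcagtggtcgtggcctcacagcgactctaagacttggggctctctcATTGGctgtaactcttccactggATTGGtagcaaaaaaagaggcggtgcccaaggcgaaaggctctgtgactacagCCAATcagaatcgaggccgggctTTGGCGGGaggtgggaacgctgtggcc
PCNA: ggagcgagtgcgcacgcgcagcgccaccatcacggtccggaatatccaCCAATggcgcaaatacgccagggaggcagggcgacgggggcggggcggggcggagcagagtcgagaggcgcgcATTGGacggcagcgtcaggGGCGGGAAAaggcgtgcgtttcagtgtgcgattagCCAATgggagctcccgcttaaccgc
PLK1: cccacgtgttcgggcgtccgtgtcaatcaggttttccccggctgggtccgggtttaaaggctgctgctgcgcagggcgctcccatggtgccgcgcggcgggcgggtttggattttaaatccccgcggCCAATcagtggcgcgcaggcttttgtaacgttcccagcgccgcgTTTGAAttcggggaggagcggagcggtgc
MKI67: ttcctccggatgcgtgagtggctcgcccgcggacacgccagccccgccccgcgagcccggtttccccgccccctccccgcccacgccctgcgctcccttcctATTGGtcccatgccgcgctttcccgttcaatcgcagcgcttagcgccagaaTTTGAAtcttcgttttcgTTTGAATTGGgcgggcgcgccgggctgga

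The E2F word of CDC6 begins 27 bases before the start, and PCNA holds a pair of overlapping E2F words 60 and 59 bases before it. The CHR word of PLK1 begins 29 bases before the start, and MKI67 has CHR words at 47 and 29 bases, the latter overlapping a CCAAT match. Among other named genes, E2F1 held an E2F word and CDK1 a CHR word in the 200 bases before the start. MCM2 held no match there, RRM2 no E2F word, and CCNB1 and KIF20A no CHR word. Over the window from 250 bases before to 50 after the start, an E2F word stood in 28 of the 41 S phase promoters in the RefSeq table (68.3%) and in 9 of 46 G2 and M phase promoters (19.6%), against 5.7% of all 27305 promoters. CHR was found in 31 of the 46 G2 and M phase promoters (67.4%) and in 2 of the 41 S phase promoters (4.9%), against 15.4% of all. CCAAT stood in 56.1%, 73.9% and 35.7%, respectively. In the p53 lists, 59 of 72 genes had an entry, and 7 held CHR (11.9%) and 8 an E2F word (13.6%). A match is a description of the letters, not a binding site.

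Of the 50 S phase genes, 48 were higher in Nutlin and 47 passed both thresholds, against 29.6% and 16.3% of all genes tested. The median difference was 3.03 on the log2 scale. The median member lay at 50.8% of its DMSO level in Nutlin and at 6.54% in PD30. E2F1, an activator of S phase genes that is itself an E2F target, had 37.96, 40.7 and 49.6 CPM in Nutlin, 4.48, 3.87 and 1.78 CPM in PD30 and 89.7, 91.7 and 88.7 CPM in DMSO (log2 fold change 3.70 ± 0.271 (SE), edgeR adjusted p = 1.24e-06). The groups of E2F1 did not overlap, in the order DMSO, Nutlin, PD30. MCM2 (log2 fold change 2.14 ± 0.123 (SE), edgeR adjusted p = 1.93e-07) belongs to the replicative helicase, and CDC6 (log2 fold change 3.15 ± 0.158 (SE), edgeR adjusted p = 7.22e-08) loads that helicase onto origins. CDC6 had 57.1, 53.5 and 53.6 CPM in Nutlin and 5.67, 5.28 and 7.797 CPM in PD30.

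In 5 S phase genes, among them PCNA, LIG1, TYMS and TK1, the Nutlin mean lay above the DMSO mean. PCNA, the sliding clamp of the replication fork and a p53 target as well, had 339.5, 298 and 286 CPM in Nutlin, 31.99, 33.6 and 37.2 CPM in PD30 and 252, 276 and 309 CPM in DMSO (log2 fold change 3.19 ± 0.111 (SE), edgeR adjusted p = 7.75e-09). Its Nutlin and DMSO libraries overlapped. In the other 45 members DMSO lay above both treatments. RRM2, a subunit of ribonucleotide reductase, had 308, 264 and 265 CPM in Nutlin and 567, 506 and 567 CPM in DMSO but 7.102, 5.34 and 4.06 CPM in PD30 (log2 fold change 5.70 ± 0.189 (SE), edgeR adjusted p = 7.26e-09). CCNE2, which encodes cyclin E2, had the lowest share of its DMSO level in Nutlin of all 50 members, at 10.1%, with 8.22, 5.46 and 9.74 CPM in Nutlin and 0.697, 0.636 and 0.494 CPM in PD30 (log2 fold change 3.71 ± 0.273 (SE), edgeR adjusted p = 1.30e-06). The exceptions of the list were SLBP, the stem-loop binding protein of histone mRNA, which was higher in PD30 (log2 fold change -0.42 ± 0.109 (SE), edgeR adjusted p = 0.00666), and CCNE1, which encodes cyclin E1, at 3.61, 3.98 and 3.88 CPM in Nutlin and 3.65, 5.695 and 4.37 CPM in PD30 (log2 fold change -0.23 ± 0.195 (SE), edgeR adjusted p = 0.322).

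All 55 G2 and M phase genes were higher in Nutlin and passed both thresholds, against 16.3% of all genes tested. Their log2 fold changes ran from 1.19 to 6.02, with a median of 4.54. In 53 of the 55, DMSO lay above both treatments. The median member lay at 55.0% of its DMSO level in Nutlin and at 2.27% in PD30. CDK1, the kinase of mitotic entry, had 254, 189.8 and 186 CPM in Nutlin, 4.61, 2.82 and 2.55 CPM in PD30 and 209, 222 and 235 CPM in DMSO. The Nutlin and DMSO libraries of CDK1 overlapped, and the difference from PD30 was 64.7-fold (log2 fold change 6.02 ± 0.226 (SE), edgeR adjusted p = 1.10e-08). CCNB1, its cyclin partner, had 158, 112 and 128 CPM in Nutlin and 12.4, 12.6 and 10.6 CPM in PD30, both under the 294, 309 and 312 CPM of DMSO (log2 fold change 3.50 ± 0.144 (SE), edgeR adjusted p = 1.75e-08). MKI67, the proliferation marker Ki-67, had 307, 211 and 291 CPM in Nutlin, 6.37, 4.62 and 4.28 CPM in PD30 and 636, 654 and 742 CPM in DMSO (log2 fold change 5.76 ± 0.201 (SE), edgeR adjusted p = 7.75e-09). In PD30 its mean was 0.752% of the DMSO mean, the lowest share in the list.

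PLK1, a mitotic kinase, had 67.1, 51.2 and 68.97 CPM in Nutlin, 4.25, 3.32 and 3.65 CPM in PD30 and 182, 164 and 148 CPM in DMSO (log2 fold change 4.09 ± 0.164 (SE), edgeR adjusted p = 1.49e-08). KIF20A, a kinesin of cytokinesis, had 202, 145 and 144 CPM in Nutlin and 2.82, 2.52 and 2.61 CPM in PD30 (log2 fold change 5.97 ± 0.170 (SE), edgeR adjusted p = 5.15e-09). TOP2A, the topoisomerase that untangles sister chromatids, had 1286, 855 and 847 CPM in Nutlin, 23.8, 16.01 and 13.1 CPM in PD30 and 1087, 1118 and 1182 CPM in DMSO (log2 fold change 5.85 ± 0.257 (SE), edgeR adjusted p = 2.65e-08). In Nutlin and in PD30 alike, replicate 1 was the highest of the 3 for CDK1, KIF20A and TOP2A. FOXM1, a transcription factor of the G2 and M phase genes, differed less than most of the list, with 223, 219 and 224 CPM in Nutlin and 68.7, 58.4 and 49.6 CPM in PD30 (log2 fold change 1.94 ± 0.121 (SE), edgeR adjusted p = 3.78e-07). The smallest difference, 1.19, was that of CDC25B, a phosphatase that activates CDK1, which lay at 22.5% of its DMSO level in PD30.

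The replication-dependent histone genes, whose mRNAs mostly lack a poly(A) tail, did not follow the S phase list. Of 52 genes, 30 could be tested, and 12 were higher in Nutlin and 4 in PD30, against 29.6% and 29.3% of all genes tested. The median difference was 0.33 on the log2 scale, but moved from -0.32 after quantile normalization to 1.22 in DESeq2. Most were near 1 CPM or lower, and their copies are so alike that reads may be shared. HIST1H1B, a linker histone, had 0.555, 0.740 and 0.659 CPM in Nutlin and 0.0332, 0.111 and 0.0275 CPM in PD30 (log2 fold change 3.42 ± 0.499 (SE), edgeR adjusted p = 0.000141). HIST1H3E went the other way, with 0.937, 1.23 and 1.02 CPM and 2.89, 2.82 and 3.54 CPM (log2 fold change -1.51 ± 0.223 (SE), edgeR adjusted p = 0.000181). HIST1H2BK, at a higher level of 68.6, 79.02 and 44.3 CPM and 52.8, 56.1 and 48.4 CPM, did not pass (log2 fold change 0.31 ± 0.175 (SE), edgeR adjusted p = 0.148), but passed with the replicate number as a block (edgeR adjusted p = 0.0278).

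The enzymes of cholesterol synthesis were higher in PD30, and in Nutlin the median member lay close to its DMSO level. These genes are driven by SREBP2 when sterol in the endoplasmic reticulum is low. Of 24 genes tested, 22 were higher in PD30 and all 22 passed both thresholds, against 8.89% of all genes tested. The median log2 fold change was -1.90, between -2.01 and -1.78 over the alternative settings. The median member lay at 365% of its DMSO level in PD30 and at 103% in Nutlin. SQLE, which epoxidizes squalene, had 37.1, 38.03 and 37.4 CPM in Nutlin, 298, 316 and 359 CPM in PD30 and 51.1, 55.8 and 56.8 CPM in DMSO (log2 fold change -3.09 ± 0.108 (SE), edgeR adjusted p = 7.75e-09). MSMO1, a sterol demethylase, had 40.7, 34.2 and 34.4 CPM in Nutlin, 289, 279 and 352 CPM in PD30 and 28.3, 34.3 and 38.4 CPM in DMSO (log2 fold change -3.05 ± 0.128 (SE), edgeR adjusted p = 1.84e-08). For SQLE the Nutlin libraries lay below DMSO, whereas for MSMO1 they overlapped it.

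At the entry of the pathway, HMGCS1 had 72.9, 67.2 and 75.9 CPM in Nutlin and 398, 376 and 479.8 CPM in PD30 (log2 fold change -2.51 ± 0.121 (SE), edgeR adjusted p = 5.27e-08). INSIG1, which retains the SREBP machinery in the endoplasmic reticulum, had 38.8, 41.9 and 44.7 CPM and 180.3, 173 and 229 CPM (log2 fold change -2.19 ± 0.132 (SE), edgeR adjusted p = 2.73e-07). In HMGCS1 and INSIG1 the PD30 libraries lay above all others, and Nutlin and DMSO overlapped in both. The members that did not pass were TM7SF2 (log2 fold change -0.41 ± 0.209 (SE), edgeR adjusted p = 0.111) and PMVK (log2 fold change 0.12 ± 0.150 (SE), edgeR adjusted p = 0.501).

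Most lysosome genes were also higher in PD30, by smaller steps. Of 47 genes, 30 were higher in PD30 and 3 in Nutlin at the adjusted p, against 29.3% and 29.6% of all genes tested. Past both thresholds there were 8 and 1, against 8.89% and 16.3%, and the median log2 fold change was -0.36. DMSO lay below both treatments in 35 of the 47, against 30.8% of all genes. NPC1, which exports cholesterol from the lysosome, had 148, 147 and 158 CPM in Nutlin, 451, 333 and 337 CPM in PD30 and 124, 125 and 139.9 CPM in DMSO (log2 fold change -1.28 ± 0.128 (SE), edgeR adjusted p = 1.15e-05). NEU1, a lysosomal sialidase, had 59.9, 71.98 and 77.3 CPM and 228, 228 and 214 CPM (log2 fold change -1.65 ± 0.115 (SE), edgeR adjusted p = 8.45e-07), and GPNMB, a glycoprotein of stressed lysosomes, had 187, 233 and 184 CPM and 672, 613 and 584 CPM (log2 fold change -1.60 ± 0.117 (SE), edgeR adjusted p = 1.24e-06). Among the well-known markers of the organelle, LAMP1 and CTSD did not pass. LAMP1, a membrane protein, had a log2 fold change of 0.052 with an interval of -0.19 to 0.30, and CTSD, the protease cathepsin D, one of -0.17 with an interval of -0.55 to 0.21. GUSB, a glucuronidase, was the member furthest towards Nutlin (log2 fold change 1.07 ± 0.102 (SE), edgeR adjusted p = 8.46e-06).

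MYC and the genes that answer ERK signalling were mixed. Of 29 genes tested, 12 were higher in PD30 and 6 in Nutlin, against 29.3% and 29.6% of all genes tested, with a median of -0.22. MYC had 6.56, 12.2 and 10.5 CPM in Nutlin, 39.9, 48.8 and 55.2 CPM in PD30 and 42.4, 34.1 and 33.4 CPM in DMSO (log2 fold change -2.27 ± 0.215 (SE), edgeR adjusted p = 7.83e-06). Nutlin thus lay below both other groups, and 1 of the PD30 libraries lay within the range of DMSO. SPRY4, a feedback inhibitor of the pathway, was higher in PD30 (log2 fold change -0.60 ± 0.165 (SE), edgeR adjusted p = 0.00869), and DUSP6, the ERK phosphatase, did not pass (log2 fold change 0.19, 95% interval -0.11 to 0.49). FOSL1, an AP-1 subunit, had 102, 112 and 158 CPM in Nutlin and 58.01, 56.5 and 78.5 CPM in PD30, with 115, 113 and 153 CPM in DMSO (log2 fold change 0.97 ± 0.182 (SE), edgeR adjusted p = 0.000921). EGR1 passed at under 2 CPM in every library of the treated groups (log2 fold change 1.02 ± 0.363 (SE), edgeR adjusted p = 0.0308), and lost the call in 7 alternative settings.

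Ribosome biogenesis genes leaned to PD30, with 23 of 39 higher there and 7 higher in Nutlin, against 29.3% and 29.6% of all genes tested, and a median of -0.38. DMSO lay above both treatments in 23 members, against 31.8% of all genes, and below both in none. NOP56, a box C/D snoRNP protein, had 92.1, 85.99 and 90.9 CPM in Nutlin, 138, 137 and 119 CPM in PD30 and 205, 209 and 226 CPM in DMSO (log2 fold change -0.52 ± 0.0959 (SE), edgeR adjusted p = 0.000781). POLR1B, the second largest subunit of RNA polymerase I, had 24.8, 25.4 and 28.7 CPM in Nutlin and 48.05, 49.6 and 45.6 CPM in PD30 (log2 fold change -0.83 ± 0.109 (SE), edgeR adjusted p = 7.92e-05). FBL, the methyltransferase fibrillarin, went the other way, with 154, 155 and 143 CPM and 86.9, 99.6 and 81.3 CPM (log2 fold change 0.78 ± 0.0995 (SE), edgeR adjusted p = 6.53e-05).

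Of 22 heat shock chaperones, 17 were higher in Nutlin and none in PD30 at the adjusted p, against 29.6% and 29.3% of all genes tested, and 5 did not pass. The steps were mostly small, with 3 past both thresholds, a share below the 16.3% of all genes, and a median of 0.58. HSPA4L, a cytosolic co-chaperone of the HSP110 family, had 177, 167 and 123 CPM in Nutlin, 12.1, 11 and 10.2 CPM in PD30 and 19.3, 23.03 and 20.3 CPM in DMSO (log2 fold change 3.83 ± 0.151 (SE), edgeR adjusted p = 1.38e-08). HSPH1, of the same family, had 676, 712 and 569.7 CPM and 402, 404 and 453 CPM (log2 fold change 0.66 ± 0.108 (SE), edgeR adjusted p = 0.000367). HSPA1A was also past both thresholds (log2 fold change 1.91 ± 0.321 (SE), edgeR adjusted p = 0.000425), but it is near-identical to HSPA1B, so its reads are uncertain. The list of endoplasmic reticulum stress and ATF4 targets split evenly, with 12 of 28 higher on each side, against 29.6% and 29.3% of all genes. The chaperones HSPA5 (log2 fold change 0.70 ± 0.104 (SE), edgeR adjusted p = 0.000191) and PDIA4 (log2 fold change 1.03 ± 0.104 (SE), edgeR adjusted p = 1.23e-05) were higher in Nutlin. On the other side, TRIB3, a pseudokinase induced by ATF4, had 8.02, 10.3 and 13.9 CPM in Nutlin, 81.9, 99.2 and 165 CPM in PD30 and 38.6, 63 and 35.6 CPM in DMSO (log2 fold change -3.40 ± 0.281 (SE), edgeR adjusted p = 2.96e-06). DDIT3, the stress factor CHOP, had 226, 182 and 238 CPM and 395, 391 and 469.7 CPM (log2 fold change -0.94 ± 0.126 (SE), edgeR adjusted p = 9.64e-05). ASNS, the asparagine synthetase, did not pass (log2 fold change 0.25 ± 0.109 (SE), edgeR adjusted p = 0.0736), and passed with the replicate block (edgeR adjusted p = 0.0292).

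The interferon-stimulated genes had a median of -0.007, between -0.12 and 0.056 over the alternative settings. At the adjusted p, 10 of 34 were higher in Nutlin and 8 in PD30, shares no higher than the 29.6% and 29.3% of all genes tested. TRIM22, a gene that p53 also induces, had 336, 291 and 282 CPM in Nutlin, 72.4, 67.9 and 90.5 CPM in PD30 and 100.3, 102 and 98.7 CPM in DMSO (log2 fold change 2.0 ± 0.129 (SE), edgeR adjusted p = 4.77e-07). OAS3 had its PD30 libraries below those of Nutlin, at 31.1, 28.97 and 31.2 CPM and 86.9, 83.95 and 91.3 CPM, with 87.8, 91.97 and 97.5 CPM in DMSO (log2 fold change 1.55 ± 0.0998 (SE), edgeR adjusted p = 4.77e-07). IFIT2 was the reverse, with 1.91, 1.51 and 2.27 CPM in Nutlin and 8.197, 7.27 and 8.81 CPM in PD30 (log2 fold change -2.07 ± 0.197 (SE), edgeR adjusted p = 8.18e-06). IFIT1 (log2 fold change -0.51 ± 0.224 (SE), edgeR adjusted p = 0.0699), IRF9 (log2 fold change -0.31 ± 0.138 (SE), edgeR adjusted p = 0.0754) and ISG15 (log2 fold change 0.41 ± 0.227 (SE), edgeR adjusted p = 0.144) did not pass, and their edgeR adjusted p with the replicate block was 0.00961, 0.0431 and 0.00528.

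Secreted factors known from senescent cells leaned to Nutlin, with members on both sides. Of 29 genes tested, 14 were higher in Nutlin and 4 in PD30, against 29.6% and 29.3% of all genes. Past both thresholds there were 9 and 3, against 16.3% and 8.89%. The median was 0.38, between 0.16 and 0.51 over the alternative settings. IL1B, the inflammatory cytokine interleukin-1 beta, had 9.89, 6.97 and 8.53 CPM in Nutlin and 0.962, 0.387 and 0.494 CPM in PD30 (log2 fold change 3.83 ± 0.295 (SE), edgeR adjusted p = 1.77e-06). A pair of IL-6 family cytokines were higher in PD30, with IL6 at 4.72, 2.78 and 2.96 CPM in Nutlin and 12.3, 9.29 and 7.14 CPM in PD30 (log2 fold change -1.43 ± 0.248 (SE), edgeR adjusted p = 0.000546) and LIF at 31.7, 34.2 and 49.7 CPM and 90.8, 102 and 106 CPM (log2 fold change -1.34 ± 0.165 (SE), edgeR adjusted p = 4.97e-05). Matrix genes leaned to Nutlin, with 25 of 43 higher there and 4 in PD30, against 29.6% and 29.3% of all genes. Their median was 0.56, between 0.29 and 0.59 over the alternative settings. VCAN, the proteoglycan versican, had 304, 243 and 177 CPM in Nutlin, 23.8, 24.6 and 21.4 CPM in PD30 and 151, 153 and 103 CPM in DMSO (log2 fold change 3.40 ± 0.176 (SE), edgeR adjusted p = 8.89e-08). FN1, fibronectin, was higher by a small step (log2 fold change 0.52 ± 0.0967 (SE), edgeR adjusted p = 0.00081), but did not pass after quantile normalization (limma adjusted p = 0.152). SPARC, a matrix protein of bone, was higher in PD30 (log2 fold change -0.32 ± 0.10 (SE), edgeR adjusted p = 0.0165) and lost the call in 4 alternative settings.

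Of 9 osteoblast markers tested, 4 were higher on each side, against 29.6% and 29.3% of all genes tested. ALPL, alkaline phosphatase, had 98.02, 118 and 36.1 CPM in Nutlin, 28.7, 34.6 and 10.3 CPM in PD30 and 80.9, 71.5 and 18.9 CPM in DMSO, so that replicate 3 was the lowest in every group. It was higher in Nutlin (log2 fold change 1.80 ± 0.445 (SE), edgeR adjusted p = 0.00498), although the third Nutlin library lay close to the highest PD30 library. Each Nutlin library of ALPL lay above the PD30 library of the same number, and the replicate block gave an edgeR adjusted p of 8.24e-14. SPP1, osteopontin, passed narrowly towards PD30 (log2 fold change -0.86 ± 0.328 (SE), edgeR adjusted p = 0.0421) and lost the call in 6 alternative settings. Among 16 markers of blood, endothelial and epithelial cells, 7 could be tested. Of these, 4 were higher in Nutlin and none in PD30, against 29.6% and 29.3% of all genes tested. ITGAM, a myeloid integrin chain, had 2.01, 2.57 and 3.002 CPM in Nutlin, 0.0996, 0.0829 and 0.137 CPM in PD30 and 0.120, 0.173 and 0.222 CPM in DMSO (log2 fold change 4.54 ± 0.347 (SE), edgeR adjusted p = 1.57e-06), while PTPRC, the common leukocyte marker, stayed under 1 CPM on average in all groups. The summed level of the list was 44.1 to 46.6 CPM in Nutlin, 37.3 to 50.9 CPM in PD30 and 25.8 to 34.5 CPM in DMSO, and 10, 13 and 13 members lay under 1 CPM.

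**Figure D3:**
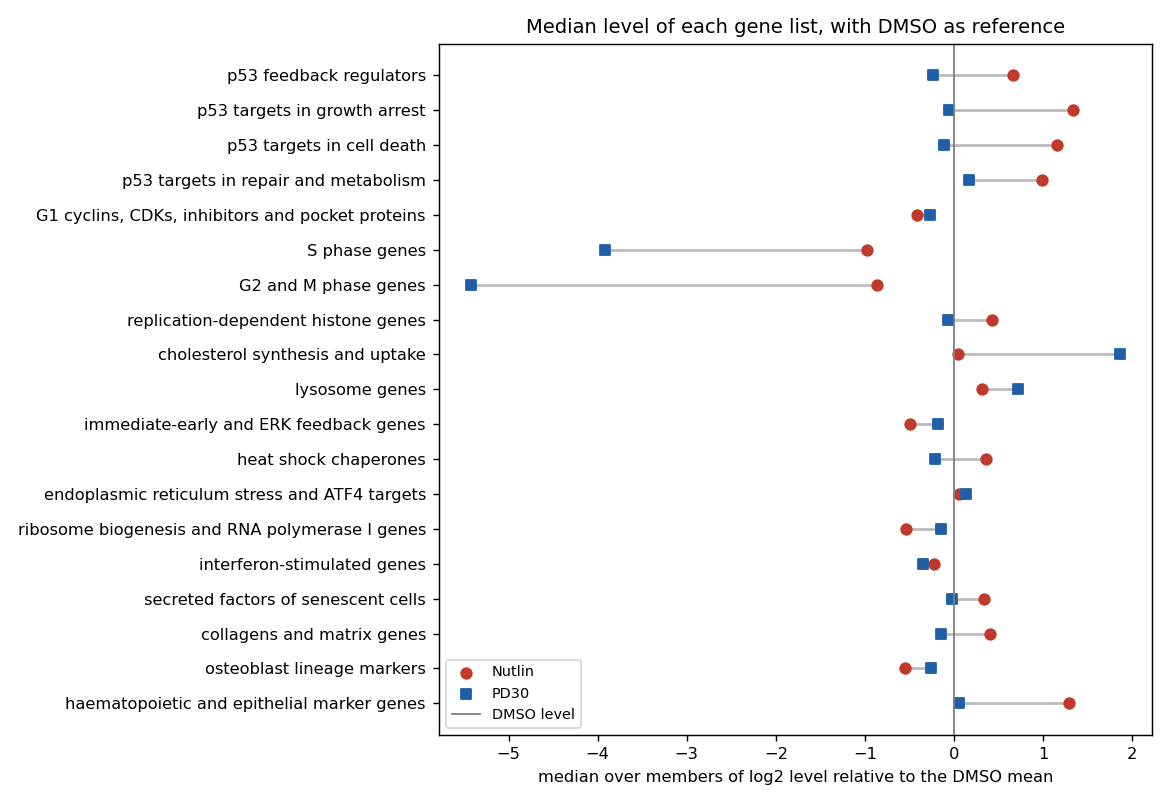
Median over the tested members of each gene list of the log2 level relative to the DMSO mean, for Nutlin (circles) and PD30 (squares), with no test. S phase genes lie at -0.98 in Nutlin and -3.92 in PD30, G2 and M phase genes at -0.86 and -5.42, cholesterol genes at 0.046 and 1.87, and growth arrest targets of p53 at 1.34 and -0.056.

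Over all genes, in the lists or not, those with the largest differences at 10 CPM or more on average included several not known as cell cycle genes. INPP5D, an inositol phosphatase best known from blood cells, had 53.5, 59.3 and 49.7 CPM in Nutlin, 0.763, 0.221 and 0.549 CPM in PD30 and 2.19, 1.76 and 1.33 CPM in DMSO (log2 fold change 6.77 ± 0.263 (SE), edgeR adjusted p = 1.30e-08). KRT4, an epithelial keratin, had 29.2, 18.8 and 25.3 CPM in Nutlin and 0.531, 0.138 and 0.165 CPM in PD30 (log2 fold change 6.53 ± 0.349 (SE), edgeR adjusted p = 1.10e-07), and PVRL4, which encodes nectin-4, had 33.4, 22.3 and 22.4 CPM and 0.398, 0.221 and 0.275 CPM (log2 fold change 6.48 ± 0.266 (SE), edgeR adjusted p = 1.71e-08). These 3 genes were under 3 CPM in every DMSO library. NEURL1B, a ubiquitin ligase of the Notch pathway, was different, with 56.03, 41.9 and 43.8 CPM in Nutlin, 0.664, 0.829 and 0.604 CPM in PD30 and 50.3, 44.6 and 43.4 CPM in DMSO (log2 fold change 6.09 ± 0.189 (SE), edgeR adjusted p = 5.15e-09). Here Nutlin and DMSO overlapped, and PD30 lay apart. The remaining 6 of the 10 largest differences towards Nutlin were CDK1, KIF20A, NUF2, TOP2A, ESCO2 and DEPDC1B, all known from chromosome cohesion, segregation or cell division.

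In the other direction, FABP3, a fatty acid carrier, had 1.25, 1.51 and 1.76 CPM in Nutlin, 35.4, 39.5 and 38.3 CPM in PD30 and 1.38, 1.45 and 1.72 CPM in DMSO, the largest difference towards PD30 among genes of this level (log2 fold change -4.62 ± 0.162 (SE), edgeR adjusted p = 7.75e-09). PRUNE2 had 45.1, 39.02 and 34.4 CPM in Nutlin and 504, 450.1 and 513 CPM in PD30 (log2 fold change -3.61 ± 0.124 (SE), edgeR adjusted p = 7.75e-09), and it overlaps the noncoding PCA3 on the opposite strand. In both genes Nutlin and DMSO overlapped, far under PD30. Also among these 10 were PNPLA3, a lipid droplet protein (log2 fold change -3.04 ± 0.142 (SE), edgeR adjusted p = 4.34e-08), and LIPG, endothelial lipase (log2 fold change -2.85 ± 0.148 (SE), edgeR adjusted p = 9.11e-08), beside SQLE and MSMO1. In C12orf68 the DMSO libraries overlapped PD30 instead, at 4.54, 3.803 and 2.93 CPM in Nutlin, 36.1, 45.01 and 26.03 CPM in PD30 and 35.3, 29.7 and 16.6 CPM in DMSO (log2 fold change -3.22 ± 0.221 (SE), edgeR adjusted p = 7.49e-07). USP53 (log2 fold change -3.15 ± 0.162 (SE), edgeR adjusted p = 8.53e-08), TAGAP (log2 fold change -3.0 ± 0.192 (SE), edgeR adjusted p = 4.55e-07) and TRIB3 completed the 10.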

How the data were processed

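RNA of SJSA-1 cells was sequenced as single reads of 50 bases. Per the methods and the processing notes, TopHat with Bowtie2 placed the reads on hg19, and HTSeq 0.6.0, in its reverse-stranded setting, gave 1 count per gene symbol. The counts were deposited by the authors as whole numbers without normalization, although the table names call them variance-stabilized. Of the same tables, 27 columns of other samples or units were not used. The authors' DESeq2 comparison of Nutlin with DMSO holds base means, log2 fold changes and p-values and was not used.

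Nutlin and PD30 counts were joined by row (23368 genes, 28 with names turned into dates). The main test was edgeR 4.0.16 (R 4.3.3), with TMM, filterByExpr (15824 genes kept) and Benjamini-Hochberg adjustment over all genes tested. Standard errors and 95% intervals come from the same fit. On simulated counts, 77.7% of 197 changed genes were recovered with 10 false calls, and 95.2% of intervals held the true value (15583 genes). Far fewer genes were changed there than differed between the treatments, so this coverage mostly concerns unchanged genes. Alternatives were DESeq2 1.42.0, limma 3.58.1 on quantile-normalized values, other scalings, filters and thresholds, a replicate block, DMSO in the fit, and leaving out each library. Same-numbered Nutlin and PD30 libraries deviated together from their group means (r = 0.595, 0.509 and 0.344), and all other pairs were negative (-0.413 to -0.028). Centring on the group means by itself pushes the other pairs below 0 when the same-numbered pairs are positive. The replicate numbers thus appear to pair the samples. The main test leaves this pairing out, and the replicate block uses it. Libraries of a group differed by 12.9 to 36.6 times the sampling noise (chi-square per degree of freedom), so none was a duplicate.

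The gene lists (19, with 589 genes) were compiled from general knowledge, and lists and comparison were chosen with earlier results of these data known. Named genes were core members marked in the lists, the 10 largest differences in each direction at 10 CPM or more, and the 2 largest in each list and direction, past both thresholds with groups that do not overlap. Members that make up a count of 5 or fewer were named after their values were seen. Some genes that this rule names are not reported here, but they stay in the fit and in the counts of their lists. Gene positions are from GENCODE on GRCh37 (90.6% of symbols placed), and promoters from RefSeq on GRCh38.p14.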

Additional observations from a re-analysis of the deposited data

How the results depend on the processing

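The 2574 genes higher in Nutlin and the 1406 higher in PD30 became 858 and 582 among genes with at least 10 CPM on average, where fewer genes are tested, 1707 and 628 when tested against a log2 fold change of 1, and 4677 and 4634 at the adjusted p with no fold threshold. With 1 library left out they ranged from 2601 to 2809 and from 1336 to 1526. The 2945 genes with a small difference ranged from 2106 to 2778 with 1 library left out, and were 8633 for a band of 1 in place of 0.5. Under DESeq2 2980 and 1441 genes were called, with RLE size factors 2603 and 1373, with total-count scaling 2324 and 1775, and with no filter on low counts 3435 and 1608. No gene called in both had opposite directions in any of these settings. With the replicate block, 2603 and 1421 genes were called and 3877 had a small difference, and among named genes only ASNS, HIST1H2BK, IFIT1, IRF9 and ISG15 changed their call.

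Of 122 named genes, 1621 values over 14 settings kept their direction and side of the threshold, and 5 genes, none past it, changed sign. CDK4 gave -0.26 after quantile normalization and -0.008 with total counts, and CDKN1B -0.036 with total counts. LAMP1 gave -0.094 and -0.060 in these settings, and -0.014 (without Nutlin replicate 2) to 0.158 with 1 library left out. RBL2 gave 0.048 at 10 CPM and 0.022 after quantile normalization, and -0.127 to 0.022 (without PD30 replicate 3) with 1 library left out. CTSD gave -0.356 to 0.020 (without Nutlin replicate 1) with 1 library left out. Calls were lost in some settings for CDK6, COL1A1, CSF2, DNAJB1, EGR1, FN1, NCL, PECAM1, SPARC and SPP1. The causes were not tested. At 3 libraries a group, the median standard error of 0.154 limits what small differences can be shown.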
